A study of Mus musculus with 11 samples.

Results

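Mouse pluripotent stem cells induced from myocytes of the ventricle (ViPSC) were compared with those induced from fibroblasts of the tail tip (TiPSC). The comparison takes the 3 arrays titled ViPSCs and the 3 titled TiPSCs, 6 of the 11 arrays of the series, across 18193 genes, each read from whichever of its probe sets was brightest on average over the 11 arrays. Genes were separated by chromosome into 1443 on chromosome 11, 932 on chromosome 8 and 15818 elsewhere or without a chromosome. The series profiled total RNA on Affymetrix mouse arrays and also holds 3 arrays of embryonic stem cells (ESC) and 1 array for each starting cell type, ventricular myocytes (VM) and fibroblasts of the tail tip (TTF). All groups share a mixed C57/Bl and BlackSwiss background, and the labels name no other allele or agent. VM and TTF came from pups at postnatal day 1. The pluripotent cells were grown on irradiated mouse embryonic fibroblasts with LIF, and these feeders were taken out by differential plating before RNA extraction. The labels do not say how the cells were reprogrammed, whether a group is 1 line or several, or whether its 3 arrays came from separate cultures. The p values below therefore measure the spread between these arrays, and cell of origin and line cannot be told apart.

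Reprogramming silences the genes of the source cell and turns on those that keep a cell pluripotent, and lines made from different tissues can keep or gain differences in gene expression and DNA methylation. In naive mouse cells many germline genes stand at the edge of activity, because their promoters are held down by DNA methylation and Polycomb-type repressors. Mouse pluripotent lines are also known to gain whole chromosomes in culture, chromosomes 8 and 11 among them, and a gained chromosome carries more RNA of nearly all the genes that are switched on. DNA was not measured here, so copy number was not tested.

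All 6 arrays held the pluripotency markers, with a median level of 11.71 to 11.84 over 10 markers in ViPSC and 11.73 to 12.19 in TiPSC (log2 RMA expression values, as are all levels below). Cardiomyocyte markers were close to the lowest levels measured, with medians of 4.08 to 4.16 in ViPSC and 3.96 to 4.13 in TiPSC over 12 markers, of which 8 were below 5 in all 6 arrays. The median of 12 fibroblast and feeder markers was 6.19 to 6.31 in ViPSC and 6.49 to 7.18 in TiPSC, and none of the 12 passed the test. The 3 ViPSC arrays correlated at 0.998 across genes, TiPSC 1 and TiPSC 2 at 0.997, and TiPSC 3 at 0.994 and 0.993 with these. A gene had a median SD over 3 arrays of 0.0794 among ViPSC, 0.123 among TiPSC and 0.155 among ESC arrays. RNA integrity, read as the 3' minus the 5' control probe set, overlapped between the groups for Gapdh (0.0109 to 0.0766 in ViPSC, -0.0888 to 0.0702 in TiPSC) and for Actb (0.599 to 0.755 and 0.604 to 0.763).

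The cells of both origins differed in 1024 of the 18193 genes (5.63%), by limma on the 9 pluripotent arrays with a Benjamini-Hochberg adjusted p under 0.05 over all genes. In ViPSC 582 genes were higher (3.2%) and 442 lower (2.43%). Chromosome 11 held 247 of the higher genes, 42.4% of them, and 6 of the lower. There 253 of 1443 genes passed (17.5%), against 48 of 932 on chromosome 8 (5.15%, 7 higher and 41 lower) and 723 of 15818 elsewhere (4.57%, with 328 higher or 2.07% and 395 lower or 2.5%). When each array was centred on the expressed genes of each chromosome before the fit, the split turned to 488 higher and 709 lower, and to 368 and 411 among expressed genes alone, an alternative chosen after seeing the data. Of the 709, 315 were on chromosome 11, where the centring took the shift of the expressed genes also from genes near background. The ESC arrays enter only through the shared spread: with the 6 induced arrays alone 2621 of 18193 genes passed, among them all 1024. In that fit 1380 genes rose and 1241 fell, of which 812 and 1115 were among the 15818 outside chromosomes 8 and 11. List counts from the 6 arrays below are to be read beside these, not beside the shares of the 9-array fit. Leaving out ViPSC 1, 2 or 3 left 241, 207 and 207 genes, and leaving out TiPSC 1 or 2 left 255 and 512. Leaving out ESC 1 or ESC 3 gave 1994 and 1613. Without TiPSC 3, 874 of 18193 genes passed, 448 higher and 426 lower, to be set beside the list counts without that array.

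Nearly the whole of chromosome 11 was more highly expressed in ViPSC. Over its 644 expressed genes (mean level of at least 7 over the 9 pluripotent arrays), the median position of an array relative to the 9-array mean, after centring on the expressed genes of the autosomes other than 8 and 11, was 0.266, 0.269 and 0.276 in ViPSC 1, 2 and 3. It was -0.207, -0.198 and -0.187 in TiPSC 1, 2 and 3. All ViPSC arrays lay above all TiPSC arrays, with no value between them, and the spread within a group was small beside the gap. ViPSC exceeded TiPSC by 0.468 log2 units, 1.38-fold (SD 0.00531 in ViPSC and 0.00997 in TiPSC, n = 3 each; two-sided exact permutation p = 0.1, the smallest that 3 against 3 arrays can give). On the other 17 autosomes the same difference ran from -0.0476 to 0.00300, and no induced array lay below -0.0406 or above 0.0414. Because 12 of the 20 chromosomes reached that smallest p (0.167 after Benjamini-Hochberg adjustment over the 20), the size of the shift and not its p sets chromosome 11 apart. The ESC arrays stood on both sides, at -0.193, -0.219 and 0.211 in ESC 1, 2 and 3, so ESC 3 was near ViPSC and ESC 1 and ESC 2 near TiPSC. Without ESC 3 the fit called 434 genes of chromosome 11. In RNA from whole cultures, fewer cells that express a gene and less RNA per cell cannot be told apart.

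**Figure D1:**
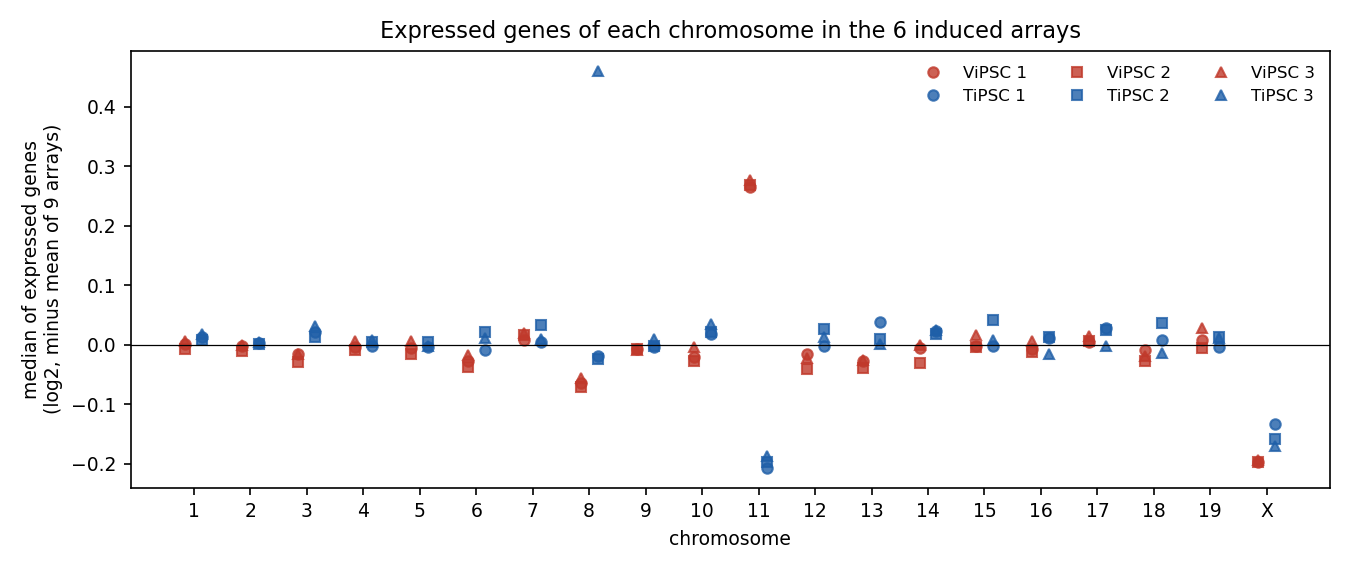
Median position of the expressed genes of each chromosome (vertical axis, log2 units from the mean of the 9 pluripotent arrays, after centring on autosomes other than 8 and 11) in each ViPSC array (red) and TiPSC array (blue). Chromosome 11 separates the groups by 0.468, and on chromosome 8 TiPSC 3 stands alone at 0.461.

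The shift ran along the whole of chromosome 11. With its expressed genes divided into 10 runs of 64 or 65 genes in chromosomal order, ViPSC exceeded TiPSC by 0.422 to 0.521 in every run. Of the 644 genes 612 lay above 0 (95.0%), 448 (69.6%) lay within 0.25 of their median of 0.472, and 31 were higher by 1 log2 unit or more. The other autosomes had as narrow a spread around their own median of -0.0190, with 71.8% of 6134 expressed genes within 0.25 of it. The shift also followed expression. Genes of chromosome 11 with a mean level under 5, near the bottom of the scale, had a median difference of 0.0186 (n = 503), those between 5 and 7 of 0.199, and those from 7 to 9, from 9 to 11 and at 11 or more of 0.449, 0.509 and 0.410. At the same levels the medians of the other autosomes lay between -0.0254 and -0.00657. RMA compresses differences near background, which bears on the lowest class.

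**Figure D2:**
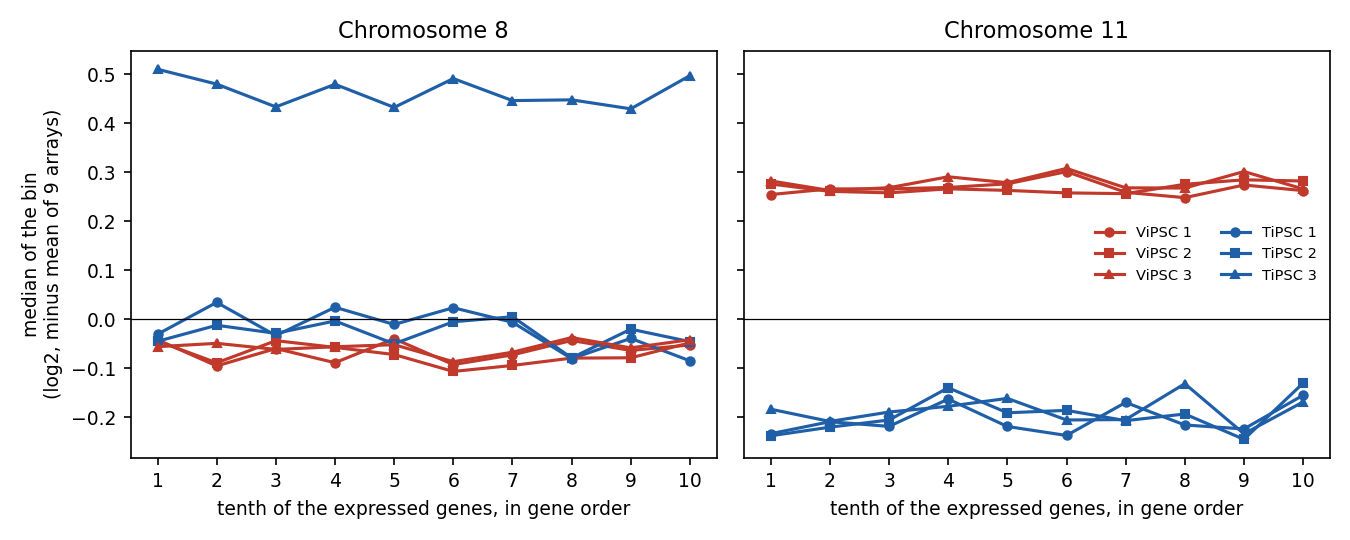
Chromosomes 8 (left) and 11 (right) in 10 runs of expressed genes in chromosomal order (horizontal axis); the vertical axis is the median of the run in log2 units from the mean of the 9 pluripotent arrays. ViPSC arrays (red) lie above TiPSC arrays (blue) along all of chromosome 11, and TiPSC 3 (blue triangles) lies above the other 5 arrays along all of chromosome 8.

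**Figure D3:**
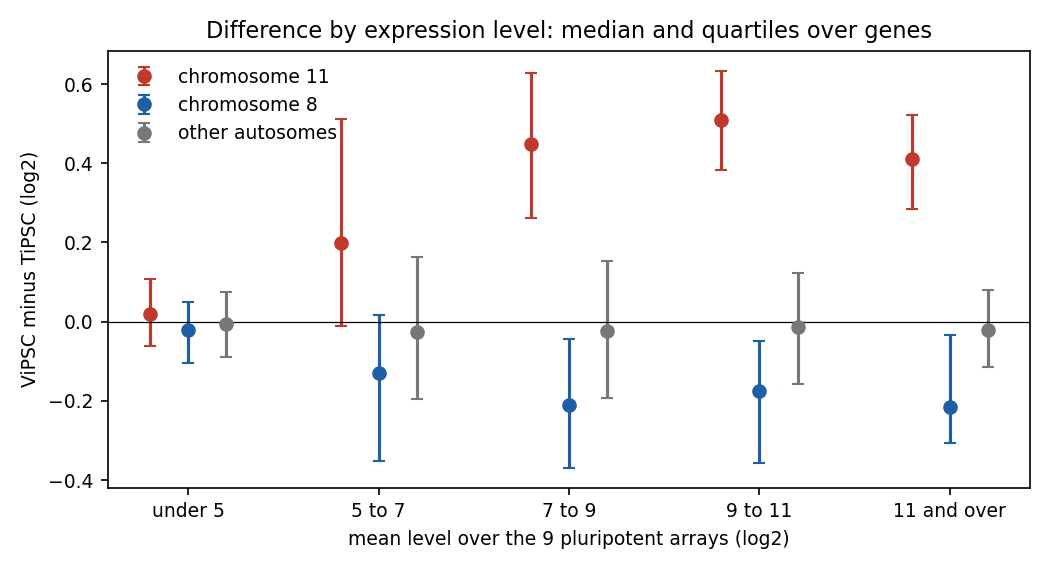
ViPSC minus TiPSC difference (vertical axis, log2 units) by mean level over the 9 pluripotent arrays (horizontal axis, log2), as the median over genes with lower and upper quartiles. Chromosome 11 (red) rises from 0.0186 in the lowest class to 0.509 between 9 and 11, chromosome 8 (blue) lies below 0 and the other autosomes (grey) near 0.

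Subunits of the same complex moved apart by chromosome. Of 10 complexes and protein families found by symbol, 47 expressed members lay on chromosome 11, and all 47 were above 0, with a median difference of 0.503 and with 19 past the test, all higher, where 31.4% of all expressed genes of chromosome 11 rose. The 367 expressed members outside chromosomes 8 and 11 had a median of -0.00798, 176 of them above 0, with 6 higher and 3 lower (2.71% and 4.17% of expressed genes on autosomes other than 8 and 11). Among mitochondrial ribosomal proteins, which build the ribosome inside mitochondria, 7 of 11 on chromosome 11 rose (median 0.588), among them Mrpl22 (0.72 ± 0.17) and Mrps7 (0.54 ± 0.12), against 2 of 63 elsewhere (median 0.0316). Of the proteasome, the complex that degrades tagged proteins, all 8 subunits on chromosome 11 lay between 0.405 and 0.589, and 2 passed, Psmb3 (0.51 ± 0.11) and Psmd11 (0.48 ± 0.092), while 0 of 34 expressed subunits elsewhere did by limma (median 0.00248; 4 higher and 1 lower at an unadjusted p under 0.05). Histone acetylation and deacetylation factors and BAF remodellers, which alter chromatin, had 5 expressed members on chromosome 11 (median 0.619). Of these 4 rose, namely Smarcd2, Smarce1, the deacetylase Hdac5 and Kat2a. Outside chromosomes 8 and 11, 0 of 18 passed by limma (median -0.0871, with 1 higher and 4 lower at an unadjusted p under 0.05). The 3 cytosolic ribosomal proteins on chromosome 11 were higher by 0.175 to 0.287, and 0 of the 49 measured passed by limma, with 2 higher and 2 lower at an unadjusted p under 0.05 and 1 higher and 1 lower from the 6 induced arrays alone. These differences are centred as above; those with an error are from the fit (± SE, n = 3 arrays a group, as throughout), and the subunits named were chosen after their values were seen.

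A few genes of chromosome 11 moved further than their neighbours. The level of Ifi35 in ViPSC was 9.0, 8.95 and 9.04, that of TiPSC 6.93, 6.14 and 6.46 and that of ESC 6.69, 7.48 and 8.99, a difference of 2.48 ± 0.47 (limma adjusted p = 0.0199). Ifi35 is an interferon-induced protein. In ViPSC Xaf1 stood at 7.13, 7.13 and 7.19, in TiPSC at 4.99, 5.08 and 4.10 and in ESC at 5.75, 7.54 and 7.94, a difference of 2.42 ± 0.49 (limma adjusted p = 0.0248). Xaf1 antagonises an inhibitor of apoptosis. The ViPSC arrays were alike and above every TiPSC array for both, and ESC 3 or ESC 2 and ESC 3 lay as high as ViPSC. The next were Septin4 (1.70 ± 0.20), a filament-forming GTPase, Ddc (1.57 ± 0.20) and Tmem106a (1.51 ± 0.20). Ddc makes dopamine and serotonin and is imprinted in the heart beside Grb10. Grb10 was at 9.12, 9.04 and 9.11 in ViPSC 1, 2 and 3, 7.67, 7.61 and 7.71 in TiPSC and 10.01, 8.93 and 7.73 in ESC. Grb10, an imprinted inhibitor of growth factor receptors, did not pass (difference 1.42 ± 0.44, adjusted p = 0.0968) although the groups did not overlap. With the 6 induced arrays alone Grb10 passed (limma adjusted p = 0.000125). Its SD was 1.14 among ESC arrays, against 0.046 in ViPSC and 0.051 in TiPSC. Xbp1, the transcription factor of the unfolded protein response, was higher by 1.32 ± 0.13, from 10.12, 9.99 and 9.74 in TiPSC to 11.33, 11.24 and 11.23 in ViPSC. Suz12, a core subunit of Polycomb repressive complex 2, rose by 0.95 ± 0.12. Top2a, the DNA topoisomerase of dividing cells, rose by 0.58 ± 0.12, with 1 of its 3 probe sets below 0. Unlike the genes before it, Top2a lay near the centred median of 0.472 over the expressed genes of the chromosome. Against the direction of the chromosome, 6 genes fell, namely Bahcc1 (-0.86 ± 0.13), Ccdc40 (-0.72 ± 0.18), Tug1, a long noncoding RNA (-0.59 ± 0.11), 2810410L24Rik (-0.59 ± 0.12), Gm11627 (-0.56 ± 0.13) and Wfdc17 (-0.41 ± 0.088). The 3 probe sets of Tug1 went both ways, from -0.59 to 0.97, and both ends passed, so its direction depends on the probe set.

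The difference on chromosome 8 rested on 1 array. Its 422 expressed genes stood at -0.0646, -0.0705 and -0.0559 in ViPSC and at -0.0181, -0.0243 and 0.461 in TiPSC 1, 2 and 3. TiPSC 3 alone was high, and the other 5 arrays lay between -0.0705 and -0.0181. The ViPSC minus TiPSC difference was -0.203 with all arrays and -0.0425 without TiPSC 3 (two-sided exact permutation p = 0.1 with all 6). TiPSC 3 exceeded the mean of TiPSC 1 and 2 by 0.482, 1.40-fold, over the chromosome and by 0.447 to 0.563 in each of 10 runs of genes, and 402 of 422 genes (95.3%) were higher in it. The labels give TiPSC 3 the same description as TiPSC 1 and 2.

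Of the 41 genes of chromosome 8 that were lower in ViPSC, 30 also passed without TiPSC 3, and of the 7 that were higher, 5 did. Without that array 16 of the 932 genes there were higher and 31 lower, beside 448 higher and 426 lower of all 18193 genes. The level of Herpud1 in ViPSC was 7.60, 7.46 and 7.34, that of TiPSC 9.02, 9.18 and 9.44 and that of ESC 8.34, 7.66 and 7.15, a difference of -1.75 ± 0.25 (limma adjusted p = 0.00769). Herpud1, which helps to clear misfolded proteins from the endoplasmic reticulum, was lower in all 3 ViPSC arrays than in any TiPSC array, also without TiPSC 3 (-1.63). Msmo1, a sterol oxidase of cholesterol synthesis, fell (-1.27 ± 0.16; -1.07 without TiPSC 3), as did Tenm3, a teneurin of cell adhesion (-1.18 ± 0.17; -1.05). The other probe set of Msmo1 lay at -0.11 and did not pass. Also among the 5 lowest there were 1190005I06Rik (-1.29 ± 0.23) and Purg (-1.08 ± 0.12). In ViPSC Mt4 stood at 8.92, 9.21 and 8.96, in TiPSC at 6.21, 6.39 and 6.61 and in ESC at 6.95, 6.87 and 7.55, a difference of 2.63 ± 0.18 (limma adjusted p = 0.000454). Mt4 is a metallothionein of stratified epithelium, and its rise was as large without TiPSC 3 (2.73). The other higher genes named there were Gm21283 (3.01 ± 0.61; 2.90 without TiPSC 3), Ddx60 (1.46 ± 0.13), an RNA helicase of antiviral defence, Kcnu1 (0.70 ± 0.17), a sperm potassium channel, and Sin3b (0.61 ± 0.13), a scaffold of histone deacetylase complexes. Without TiPSC 3, Gm21283 and Kcnu1 no longer passed (limma adjusted p = 0.0619 and 0.0760). The second probe set of Ddx60 lay at -0.03, and 2 of the 5 of Sin3b were below 0. Mt1 and Mt2, the widely expressed metallothioneins next to Mt4, differed by -0.11 ± 0.16 and 0.068 ± 0.092 and did not pass (adjusted p = 0.776 and 0.751).

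Outside chromosomes 8 and 11, 461 of the 723 genes passed in the same direction without TiPSC 3, and 647 passed in all. The 10 largest rises on the other autosomes were led by the egg and germ cell genes Khdc3 and Rbm44 described below and by Mep1b, a meprin metalloprotease subunit. Mep1b (chromosome 18) was at 8.41, 8.38 and 8.38 in ViPSC 1, 2 and 3, 5.41, 5.92 and 5.71 in TiPSC and 5.55, 4.87 and 5.40 in ESC, a difference of 2.71 ± 0.18 (limma adjusted p = 0.000379). ESC stood with TiPSC for this gene, and no ViPSC array came near. The level of Cyct (chromosome 2) in ViPSC was 11.08, 11.11 and 11.19, that of TiPSC 8.78, 9.31 and 8.43 and that of ESC 9.60, 9.26 and 10.41, a difference of 2.29 ± 0.29 (limma adjusted p = 0.00424). Cyct is the cytochrome c of the testis. In ViPSC Fam167a (chromosome 14) stood at 7.82, 8.05 and 7.75, in TiPSC at 5.50, 5.73 and 5.79 and in ESC at 7.06, 6.64 and 6.38, a difference of 2.20 ± 0.17 (limma adjusted p = 0.000537). The groups did not overlap for either gene, and the ESC means lay between them. Cd2, a T cell adhesion molecule (2.18 ± 0.23), Aard, an alanine- and arginine-rich protein (2.10 ± 0.19), and Adgrf5, an adhesion G protein-coupled receptor of endothelium and lung (2.05 ± 0.22), followed, with Igf2 and Krt7. Adgrf5 was at 11.96 in the VM array and 5.07 in TTF. The other probe set of Adgrf5 lay at 0.02 and that of Igf2 at 0.25, and neither passed.

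The 10 largest falls on autosomes other than 8 and 11 included Csrnp3, Hunk, Slc7a1 and Gm6958. Csrnp3 (chromosome 2) was at 3.92, 3.35 and 3.95 in ViPSC 1, 2 and 3, 5.73, 5.57 and 5.82 in TiPSC and 4.76, 3.74 and 3.61 in ESC, a difference of -1.97 ± 0.28 (limma adjusted p = 0.00745). Csrnp3, a nuclear protein, was lower in every ViPSC array, with ESC between or beside them. Its ViPSC levels were under 5, near the bottom of the scale. Of its 3 probe sets 1 passed, and another lay at -0.08. Hunk, a kinase, fell from 7.89, 7.60 and 8.04 in TiPSC to 6.55, 6.64 and 6.18 in ViPSC (-1.39 ± 0.15), and here the ESC arrays (6.24, 6.22 and 6.49) stood with ViPSC. Slc7a1, the transporter of cationic amino acids, fell (-1.27 ± 0.16) with 1 of its 3 probe sets at 0.02, and Gm6958 also fell (-1.26 ± 0.28). For 9 of the 10 highest and 9 of the 10 lowest genes of these autosomes the ESC mean lay between the ViPSC and TiPSC means.

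Of 54 measured germline and maternal genes 12 were higher in ViPSC and 0 lower by limma (20 higher and 1 lower at an unadjusted p under 0.05), with a median difference of 0.23 against -0.035 over all genes. Tex14, Tex19.1 and Tex19.2 were on chromosome 11, and the other 9 were among 49 elsewhere (median 0.17), where 2.07% of all genes rose. Without TiPSC 3, 8 of the 12 passed and Fmr1nb, Taf7l, Tex14 and Tex19.2 did not, and with the 6 induced arrays alone 21 rose and 1 fell. The level of Rhox9 (chromosome X) in ViPSC was 10.62, 10.79 and 10.50, that of TiPSC 6.92, 7.14 and 7.54 and that of ESC 9.07, 10.65 and 10.81, a difference of 3.43 ± 0.39 (limma adjusted p = 0.00252). In ViPSC Rhox6 (chromosome X) stood at 10.57, 10.96 and 10.58, in TiPSC at 7.23, 7.53 and 7.97 and in ESC at 9.31, 10.60 and 10.68, a difference of 3.13 ± 0.34 (limma adjusted p = 0.00222). Both are reproductive homeobox genes of one X-linked cluster, and for both ViPSC lay with ESC 2 and ESC 3, TiPSC lowest and ESC 1 between. Khdc3 (chromosome 9) was at 9.81, 9.46 and 9.69 in ViPSC 1, 2 and 3, 6.37, 7.04 and 6.59 in TiPSC and 8.16, 8.65 and 9.50 in ESC, a difference of 2.99 ± 0.30 (limma adjusted p = 0.00176). Khdc3 belongs to the maternal complex below the egg membrane. The level of Rbm44 (chromosome 1) in ViPSC was 7.75, 7.62 and 7.42, that of TiPSC 4.53, 4.73 and 4.93 and that of ESC 6.75, 6.20 and 6.64, a difference of 2.87 ± 0.16 (limma adjusted p = 0.000263). Rbm44 is an RNA-binding protein of germ cells. For both, every ViPSC array lay more than 2 log2 units above every TiPSC array.

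**Figure D4:**
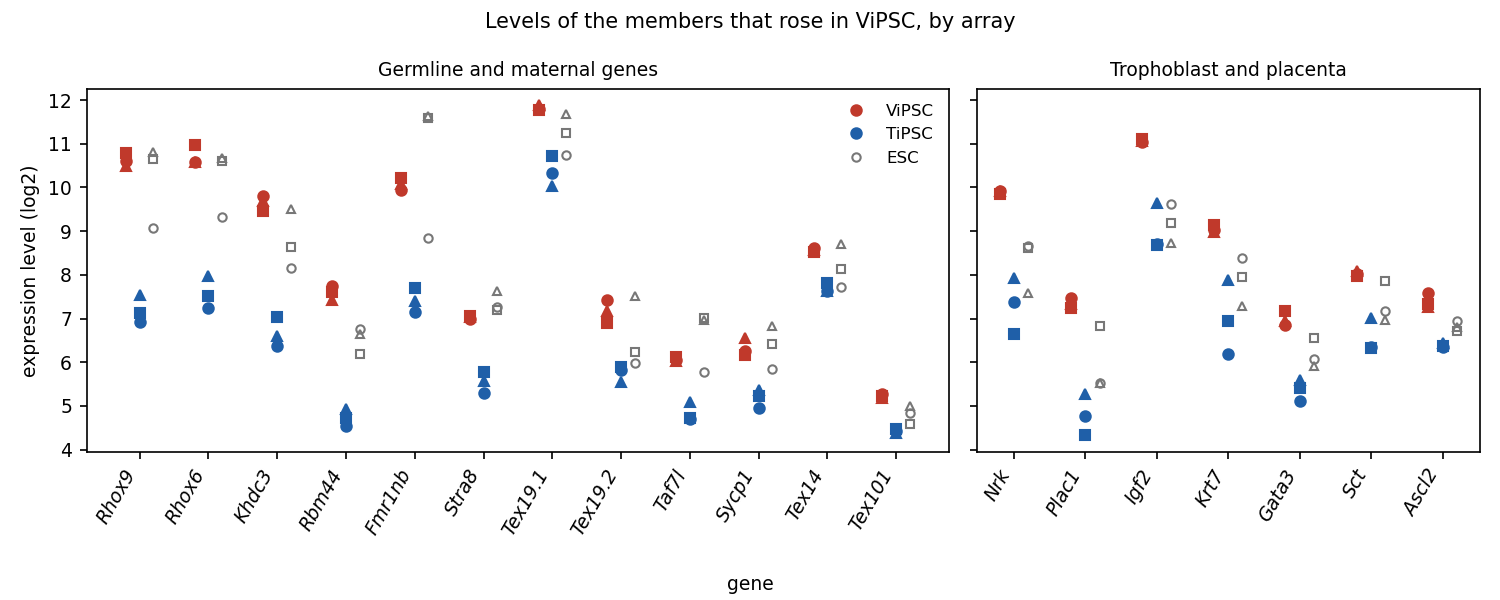
Expression level (vertical axis, log2) in each ViPSC (red), TiPSC (blue) and ESC (open grey) array of the 12 germline genes (left) and 7 trophoblast and placenta genes (right) that rose in ViPSC; circles, squares and triangles are arrays 1, 2 and 3. The red points lie above all blue points for each gene, and ESC lies between or beside the ViPSC points for most.

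Stra8, which lets germ cells enter meiosis, rose from 5.30, 5.79 and 5.58 in TiPSC to 7.0, 7.07 and 7.03 in ViPSC (1.47 ± 0.14), with ESC at 7.26, 7.21 and 7.64. Sycp1, of the synaptonemal complex that joins paired chromosomes, rose by 1.15 ± 0.23, Taf7l, a germ cell subunit of the transcription factor TFIID, by 1.23 ± 0.28, and Tex101, a sperm surface protein, by 0.80 ± 0.11. Fmr1nb, a testis antigen on chromosome X, rose by 2.66 ± 0.62, with ESC 2 and ESC 3 at 11.60 and 11.63 above the ViPSC arrays. The chromosome 11 members were Tex19.1 (1.46 ± 0.23), which protects germ cells from mobile elements, its copy Tex19.2 (1.42 ± 0.34) and Tex14 (0.88 ± 0.20), of the bridges between germ cells. Better-known members did not pass: Dazl was at 8.11, 8.19 and 8.08 in ViPSC and 6.66, 7.33 and 7.06 in TiPSC (adjusted p = 0.37), Ddx4 at 7.26, 7.37 and 7.22 in ViPSC and 7.36, 7.26 and 7.64 in TiPSC (adjusted p = 0.663) and Mael at 6.61, 6.69 and 6.71 in ViPSC and 6.61, 6.96 and 6.17 in TiPSC (adjusted p = 0.93). The groups did not overlap for Dazl, which was at 7.22, 8.44 and 10.44 in ESC, and they overlapped for Ddx4 and Mael. Dazl passed with the 6 induced arrays alone (limma adjusted p = 0.0046).

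The promoters of the germline genes that rose were not of 1 kind. RefSeq promoter windows (GRCm38.p6) were matched for 9 of the 12 genes, and the 250 bases before the start held from 0 to 17 CG dinucleotides, the sites of DNA methylation, with a median of 14. The other germline genes had a median of 15 (36 windows) and all 32851 windows of the table a median of 6. The motif CACGTG, which reads the same on both strands and is the E-box bound by the germline repressor complex of Max and Mga, was in 2 of the 9 windows (22.2%), 15 of the 36 (41.7%) and 6.02% of all. It lay 94 bases before the start in Sycp1 and 49 in Taf7l. The windows below show the range, from the gene with the largest rise on autosomes other than 8 and 11 and no CG to a gene with 17; capitals mark CG. Khdc3 is read from chr9:73102148-73102397 on the plus strand, Stra8 from chr6:34920698-34920947 on the plus strand, Taf7l from chrX:134476491-134476740 on the minus strand and Sycp1 from chr3:102936101-102936350 on the minus strand.
Khdc3: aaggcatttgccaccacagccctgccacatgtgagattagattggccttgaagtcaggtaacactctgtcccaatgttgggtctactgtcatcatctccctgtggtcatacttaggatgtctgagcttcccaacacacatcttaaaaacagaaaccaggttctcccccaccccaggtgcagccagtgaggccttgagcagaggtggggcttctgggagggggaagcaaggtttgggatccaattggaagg
Stra8: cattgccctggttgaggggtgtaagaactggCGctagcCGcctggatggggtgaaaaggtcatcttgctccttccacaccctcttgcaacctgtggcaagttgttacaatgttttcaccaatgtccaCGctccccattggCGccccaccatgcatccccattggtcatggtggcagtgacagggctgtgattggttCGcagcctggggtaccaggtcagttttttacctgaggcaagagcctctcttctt
Taf7l: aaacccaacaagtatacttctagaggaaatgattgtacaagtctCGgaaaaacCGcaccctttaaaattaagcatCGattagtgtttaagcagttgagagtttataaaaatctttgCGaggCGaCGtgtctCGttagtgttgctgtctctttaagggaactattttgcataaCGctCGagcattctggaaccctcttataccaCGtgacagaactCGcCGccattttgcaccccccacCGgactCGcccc
Sycp1: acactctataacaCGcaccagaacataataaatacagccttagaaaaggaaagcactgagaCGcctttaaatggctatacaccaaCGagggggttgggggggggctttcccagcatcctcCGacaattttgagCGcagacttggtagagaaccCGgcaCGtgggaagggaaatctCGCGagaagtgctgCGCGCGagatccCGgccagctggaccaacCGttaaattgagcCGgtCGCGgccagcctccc
A match is a description of these letters, and methylation and binding were not measured.

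Of 24 trophoblast and placenta genes 7 rose and 0 fell by limma (10 and 1 at an unadjusted p under 0.05, and 8 and 3 from the 6 induced arrays alone), where 2.07% of all genes outside chromosomes 8 and 11 rose and 2.5% fell. The median was 0.36, and none of the 7 was on chromosome 8 or 11. Nrk, a kinase of the placenta on chromosome X, was at 9.92, 9.86 and 9.91 in ViPSC and 7.37, 6.64 and 7.94 in TiPSC. Plac1, a placental surface protein on the same chromosome, was at 7.47, 7.25 and 7.34 in ViPSC and 4.77, 4.33 and 5.26 in TiPSC. In ViPSC Igf2 (chromosome 7) stood at 11.05, 11.11 and 11.06, in TiPSC at 8.71, 8.69 and 9.64 and in ESC at 9.62, 9.18 and 8.72, a difference of 2.06 ± 0.28 (limma adjusted p = 0.00573). Igf2 is the growth factor expressed from the paternal allele, and its other probe set lay at 0.25 and did not pass. The ViPSC arrays were the highest of all 9 pluripotent arrays for these 3 genes, and TiPSC 3 was the highest of its group. Krt7, a keratin of simple epithelia, rose by 2.05 ± 0.39 while its TiPSC arrays spread from 6.20 to 7.88, and Gata3, a transcription factor of trophoblast, by 1.63 ± 0.18. Ascl2, needed by the spongiotrophoblast (1.01 ± 0.11), and Sct, the hormone secretin (1.47 ± 0.24), completed the 7. Other regulators of the lineage did not pass: Cdx2 was at 5.86, 5.71 and 5.41 in ViPSC and 5.41, 5.43 and 5.40 in TiPSC (adjusted p = 0.528), Eomes at 7.83, 7.81 and 7.67 in ViPSC and 7.96, 6.93 and 8.22 in TiPSC (adjusted p = 0.946) and Elf5 at 4.53, 4.88 and 4.29 in ViPSC and 3.92, 4.30 and 4.25 in TiPSC (adjusted p = 0.168).

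Imprinted genes went both ways: of 42 measured 4 rose and 3 fell, with a median of -0.043, beside 3.2% of all genes that rose and 2.43% that fell. Those that rose were Igf2 and Ascl2, also on the placental list and both on distal chromosome 7, Ddc on chromosome 11 and the amino acid transporter Slc38a4 (0.56 ± 0.095). Mest (chromosome 6) was at 8.56, 8.30 and 8.63 in ViPSC 1, 2 and 3, 9.95, 9.82 and 9.98 in TiPSC and 8.73, 8.29 and 8.84 in ESC, a difference of -1.42 ± 0.15 (limma adjusted p = 0.00208). Mest, a hydrolase-like protein expressed from the paternal allele, was lower in every ViPSC array, and ESC stood near ViPSC. Sgce, a sarcoglycan also on chromosome 6, fell (-1.0 ± 0.18) in 1 of its 2 probe sets and lay at 0.02 in the other. Its neighbours in that imprinted cluster, Peg10 (-0.67 ± 0.18, adjusted p = 0.0626) and Ppp1r9a (-0.86 ± 0.40, adjusted p = 0.253), were lower in all 3 ViPSC arrays without passing. With the 6 induced arrays alone both passed (limma adjusted p = 0.0286 and 0.00063). The SD of Ppp1r9a was 1.03 among ESC arrays, against 0.041 in ViPSC and 0.043 in TiPSC. Magel2, of the Prader-Willi region, fell (-0.72 ± 0.12) at a low level. Meg3, the noncoding RNA of the Dlk1-Dio3 cluster, was at 6.38, 7.20 and 6.97 in ViPSC and 7.41, 6.76 and 6.24 in TiPSC, overlapping, and at 10.61, 9.16 and 8.80 in ESC.

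On chromosome X 31 of 617 genes passed (21 higher and 10 lower), a share of 5.02% near the 5.63% of all genes. Pnma5, of a family derived from a retroelement, led at 9.64, 9.62 and 9.63 against 6.50, 6.53 and 5.48 (3.46 ± 0.81), followed by Rhox9, Rhox6, 3830417A13Rik (3.04 ± 0.42) and Fmr1nb. The lowest were Tmem47 (-1.54 ± 0.24), Zfp280c (-0.93 ± 0.17), Cask (-0.85 ± 0.12), a scaffold of cell junctions, Sat1 (-0.74 ± 0.12), which breaks down polyamines, and the noncoding RNA Firre (-0.74 ± 0.16). The X chromosome as a whole stood at -0.197 to -0.194 in ViPSC and -0.170 to -0.134 in TiPSC, a difference of -0.0418. It was at 0.630 and 0.674 in ESC 2 and ESC 3 and -0.173 in ESC 1, and this spread enters the fit for X-linked genes. Without TiPSC 3, Pnma5, Fmr1nb and Firre no longer passed (adjusted p = 0.105, 0.0896 and 0.0826).

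Of 49 measured genes of the amino acid and endoplasmic reticulum stress response, 11 fell in ViPSC and 1, Xbp1 on chromosome 11, rose, beside 2.43% and 3.2% of all genes. The median was -0.28, 8 of 42 fell outside chromosomes 8 and 11, and 10 fell without TiPSC 3, or 20 with the 6 induced arrays alone. The level of Chac1 (chromosome 2) in ViPSC was 6.72, 6.71 and 6.72, that of TiPSC 8.69, 8.65 and 8.32 and that of ESC 7.61, 7.38 and 6.30, a difference of -1.84 ± 0.28 (limma adjusted p = 0.00962). Chac1, which degrades glutathione, was lower in every ViPSC array than in any TiPSC array, while ESC 3 lay below the ViPSC arrays and ESC 1 and ESC 2 between the groups. The enzymes of serine and folate metabolism also fell, namely Psat1 (-0.70 ± 0.11), Phgdh (-0.43 ± 0.076), Mthfd2 (-0.74 ± 0.18), Mthfd2l (-1.35 ± 0.17) and Mthfd1l (-0.42 ± 0.10). Sesn2, a stress sensor of leucine (-0.66 ± 0.16), and Gpt2, a mitochondrial transaminase on chromosome 8 (-0.83 ± 0.14), fell too. So did the chaperone Calr, also on chromosome 8 (-0.56 ± 0.11), and Derl3, of protein export from the endoplasmic reticulum (-0.48 ± 0.11). The other probe set of Sesn2 lay at 0.0028, and neither passed when every probe set was tested. The transcription factors Atf4 and Ddit3 did not pass. Atf4 was at 11.83, 11.85 and 11.92 in ViPSC and 12.38, 12.51 and 12.24 in TiPSC (adjusted p = 0.199), Ddit3 at 7.34, 7.47 and 7.46 in ViPSC and 8.16, 8.14 and 7.53 in TiPSC (adjusted p = 0.227), and their target Trib3 at 8.06, 7.91 and 7.79 in ViPSC and 8.76, 8.93 and 8.10 in TiPSC (adjusted p = 0.269). Every ViPSC array was below every TiPSC array for these 3, but TiPSC 3 was the nearest to ViPSC in each.

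Of 29 genes of cholesterol and fatty acid synthesis 6 fell and 0 rose by limma (16 and 2 at an unadjusted p under 0.05), with a median of -0.39, and 2.43% of all genes fell. In ViPSC Cyp51 (chromosome 5) stood at 9.09, 9.02 and 9.10, in TiPSC at 9.90, 9.81 and 10.06 and in ESC at 9.58, 9.34 and 9.22, a difference of -0.85 ± 0.11 (limma adjusted p = 0.00424). Cyp51, the lanosterol demethylase, was lower in every ViPSC array than in any TiPSC array. The others were Msmo1 on chromosome 8, Idi1 (-0.68 ± 0.12) and Mvk (-0.43 ± 0.100), early enzymes of the isoprenoid path, Hsd17b7 (-0.46 ± 0.10) and the sterol carrier Stard4 (-0.46 ± 0.097). For Hsd17b7 and Stard4 1 probe set each lay above 0. With the 6 induced arrays alone 15 fell and 2 rose, and without TiPSC 3 4 fell. Hmgcs1, which feeds the path, was at 11.72, 11.47 and 11.62 in ViPSC and 12.12, 11.97 and 12.43 in TiPSC (adjusted p = 0.14), and Sqle at 10.69, 10.76 and 10.58 in ViPSC and 10.92, 10.87 and 11.05 in TiPSC (adjusted p = 0.137). The median of the 12 fibroblast and feeder markers was lower in ViPSC as well (given above), and its part in the falls was not tested.

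Of 42 cell cycle and p53 genes 6 fell and Top2a rose, beside 2.43% and 3.2% of all genes (12 fell and 6 rose at an unadjusted p under 0.05), and without TiPSC 3 5 fell and 0 rose by limma. Cdk6 (chromosome 5) was at 6.93, 6.67 and 7.02 in ViPSC 1, 2 and 3, 8.82, 8.29 and 8.18 in TiPSC and 7.75, 7.50 and 7.04 in ESC, a difference of -1.56 ± 0.21 (limma adjusted p = 0.00597). Cdk6 and its cyclin partner Ccnd1 (-0.75 ± 0.12), with Cdk4 (-0.36 ± 0.084), drive cells out of G1, and E2f3 (-0.60 ± 0.11) turns on replication genes. The p53 targets that fell were Cdkn1a (-0.49 ± 0.082), which inhibits those kinases, and Zmat3 (-0.52 ± 0.091). Of 68 Wnt, Hedgehog and growth factor genes 4 fell and 2 rose, beside the same 2.43% and 3.2% of all genes. All 4 falls were among 53 genes outside chromosomes 8 and 11, where 2.5% of all genes fell. With the 6 induced arrays alone 8 fell and 5 rose, and without TiPSC 3 6 fell and 2 rose. The level of Gli2 (chromosome 1) in ViPSC was 7.54, 7.20 and 7.59, that of TiPSC 9.38, 9.23 and 8.59 and that of ESC 7.69, 8.95 and 8.81, a difference of -1.62 ± 0.32 (limma adjusted p = 0.024). Gli2 is a transcription factor of Hedgehog signalling, and ESC 2 and ESC 3 stood with TiPSC and ESC 1 with ViPSC. Wls, needed to secrete Wnt proteins, fell (-1.39 ± 0.21) and was at 10.83 in TTF and 8.60 in VM. Fgf15 (-1.10 ± 0.19) and Fgf17 (-0.93 ± 0.14) fell, and Wnt7b (0.69 ± 0.13) and, on chromosome 11, the binding protein Igfbp4 (1.07 ± 0.15) rose. Gli1 was at 7.29, 7.33 and 7.43 in ViPSC and 7.86, 7.97 and 7.65 in TiPSC (adjusted p = 0.109).

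**Figure D5:**
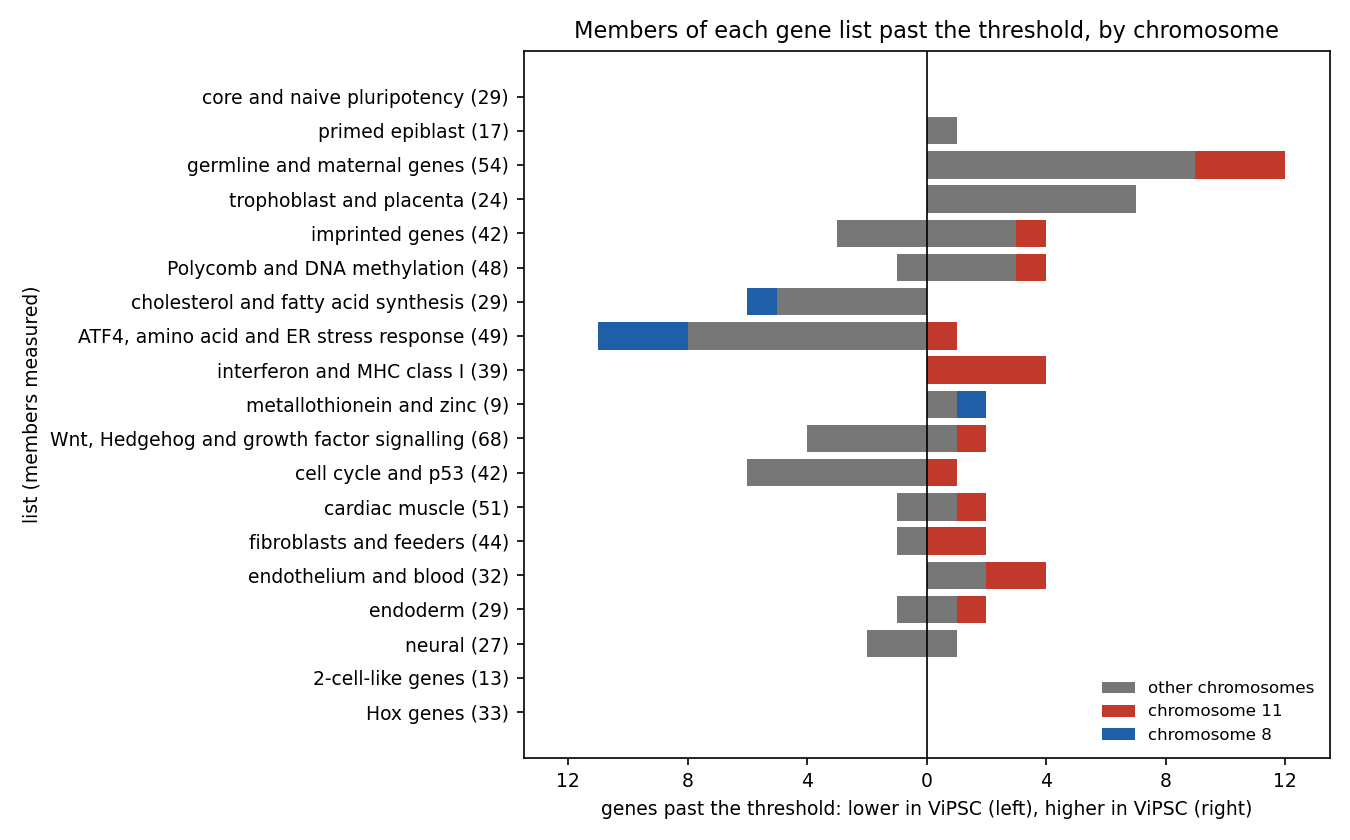
Members past the test in each of 19 gene lists (vertical axis, measured members in brackets); the horizontal axis counts genes lower in ViPSC to the left and higher to the right, coloured by chromosome (11 red, 8 blue, others grey). The longest bars are the 12 germline genes that rose and the 11 stress response genes that fell. All 4 genes of the interferon list that rose are on chromosome 11.

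The genes of the interferon list that rose were on chromosome 11: 4 of 8 there (Ifi35, Xaf1, Irf1 and Trim25, median 0.92). On that chromosome 17.1% of all genes and 31.4% of expressed genes rose. Ddx60 of antiviral defence, on chromosome 8 and not on this list, also rose (1.46 ± 0.13), with its second probe set at -0.03. Of 29 list members outside chromosomes 8 and 11, 0 were higher and 0 lower by limma (median 0.14, with 4 higher and 3 lower at an unadjusted p under 0.05). With the 6 induced arrays alone 3 of the 29 rose and 2 fell, and without TiPSC 3 2 rose and 1 fell. Irf1, a transcription factor of the response, was at 9.57, 9.61 and 9.75 in ViPSC and 8.10, 8.02 and 8.37 in TiPSC, and Trim25, an activator of viral RNA sensing, rose by 0.80 ± 0.095. Ifit1, a typical target, was at 3.84, 3.57 and 3.74 in ViPSC and 3.84, 3.84 and 3.41 in TiPSC, close to the lowest levels measured. Of 9 metallothionein and zinc genes Mt4 and the zinc-sensing factor Mtf1 rose, the latter by 0.70 ± 0.16, with 1 of its 5 probe sets below 0.

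Chromatin regulators of the Polycomb and DNA methylation list gave 4 higher and 1 lower of 48 (3.2% and 2.43% of all genes; median -0.022, 3 higher and 0 lower without TiPSC 3). In ViPSC Phf19 (chromosome 2) stood at 7.19, 7.36 and 7.20, in TiPSC at 5.37, 5.74 and 5.29 and in ESC at 6.15, 6.24 and 7.07, a difference of 1.78 ± 0.22 (limma adjusted p = 0.00424). Phf19 is an accessory subunit of Polycomb repressive complex 2, and its other probe set lay at -0.34 and did not pass. Jarid2, of the same complex, was at 12.43, 12.35 and 12.43 in ViPSC and 11.79, 11.79 and 11.93 in TiPSC. The DNA methyltransferase Dnmt3a was at 9.48, 8.64 and 9.28 in ViPSC and 8.14, 8.28 and 8.24 in TiPSC, with ViPSC 2 lowest of its group. Of the 5 probe sets of Dnmt3a 1 passed and the lowest lay at 0.025, and 1 of the 3 of Jarid2 passed. Without TiPSC 3 Dnmt3a did not pass (limma adjusted p = 0.0735). Cbx6, of Polycomb complex 1, fell (-0.43 ± 0.11). Other core subunits did not pass: Ezh2 was at 10.94, 11.06 and 10.94 in ViPSC and 11.36, 11.30 and 11.16 in TiPSC (adjusted p = 0.0709) and Eed at 11.77, 11.73 and 11.81 in ViPSC and 12.17, 12.16 and 11.89 in TiPSC (adjusted p = 0.132), both lower in every ViPSC array.

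With all arrays 0 of 29 pluripotency genes passed by limma, with a median of 0.055, 2 higher and 2 lower at an unadjusted p under 0.05, and 2 higher and 1 lower from the 6 induced arrays alone. Without TiPSC 3, 2 fell, Klf4 (-0.63, adjusted p = 0.00903) and Tfcp2l1 (-0.59, adjusted p = 0.0235), both transcription factors of the naive state. With all arrays Klf4 was at 11.54, 11.56 and 11.48 in ViPSC and 12.22, 12.09 and 11.53 in TiPSC (adjusted p = 0.157), where TiPSC 3 overlapped with ViPSC. Of 17 genes of the primed epiblast Foxd3 rose (0.59 ± 0.14) and 0 fell by limma, while 3 of the 17 lay above 0 and the median was -0.21. At an unadjusted p under 0.05, 1 rose and 4 fell, with the 6 induced arrays alone 1 and 5, and without TiPSC 3 1 and 1. Fgf5 was at 5.50, 5.67 and 5.83 in ViPSC and 7.60, 6.50 and 7.76 in TiPSC (adjusted p = 0.0815). By limma 0 of 13 genes of the 2-cell-like state and 0 of 33 Hox genes passed, with medians of 0.087 and -0.11. At an unadjusted p under 0.05 these lists had 1 gene each, and the 6 induced arrays alone gave 3 and 0.

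Genes of other tissues gave small counts by limma on the 9 arrays, to be read beside 3.2% of all genes that rose and 2.43% that fell. Of 51 cardiac genes, Myl4, an atrial light chain on chromosome 11 (1.44 ± 0.21), and Hrc, of the calcium store (0.96 ± 0.13), rose and Ldb3, of the Z-disc (-0.66 ± 0.16), fell, at levels from 4.0 to 7.82. The other probe set of Myl4 lay at 0.036 and did not pass. Among 44 fibroblast and feeder genes Sparc (1.06 ± 0.084) and Igfbp4, both on chromosome 11, rose and Ccn1 (-0.50 ± 0.089) fell, and 4 fell without TiPSC 3. Only 2 of the 4 probe sets of Ccn1 went down, and the highest lay at 0.31. At an unadjusted p under 0.05, 3 of the 44 genes rose and 16 fell, and with the 6 induced arrays alone 2 rose and 10 fell. Of the 44, 7 lay above 0. That list had a median of -0.35, the lowest of the 19 after cholesterol synthesis, and medians by array of 7.78, 7.90 and 7.95 in ViPSC and 8.72, 8.31 and 8.15 in TiPSC. Among 32 endothelial and blood genes Pecam1 (1.33 ± 0.21) and Cd68 (1.37 ± 0.27), both on chromosome 11, Cldn5, of tight junctions (1.03 ± 0.13), and Csf1r, a macrophage receptor (1.54 ± 0.29), rose. Of the 3 probe sets of Csf1r 1 passed, and the lowest lay at 0.0025. Ptprc, the common marker of white blood cells, was at 3.63, 3.63 and 3.82 in ViPSC and 3.76, 3.54 and 3.45 in TiPSC, and Lyz2 did not pass, and Hba-a1 and Ptprc were below 5 in all 6 arrays. The median of the 5 blood markers measured was 6.30 to 7.13 in ViPSC and 4.75 to 5.72 in TiPSC. In each of these arrays except ViPSC 3 that median was the value of Csf1r itself, so it is no separate sign of blood cells. A part of blood cells in these rises was not tested. Of 29 endoderm genes Sparc again and Thbd (0.55 ± 0.11) rose and Lamc1 fell (-0.48 ± 0.095), with its 2 probe sets at -0.48 and 0.69. Of 27 neural genes Neurog1 rose (1.47 ± 0.29), and Map2 (-1.12 ± 0.21) and Nefl (-0.80 ± 0.19) fell. The other probe set of Neurog1 lay at 0.038 and did not pass, and 1 of the 4 of Map2 passed.

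The genes that differed were set beside the source cells, where each cell type has 1 array and no test can be made. Of the 395 genes outside chromosomes 8 and 11 that were lower in ViPSC, 38 (9.62%) were at least 2 log2 units higher in the TTF array than in VM, and 13 (3.29%) the reverse. Of the 328 that were higher, 20 (6.10%) were that much higher in VM and 12 (3.66%) in TTF. Over all 15818 genes there both shares were 4.72%. The other genes differed by less than 2 log2 units between the source arrays. Of the 328, 95 (29.0%) were below 5 in both, against 33 of the 395 (8.35%) and 36.0% of all 15818. Genes that low in both arrays have little room to differ by 2 log2 units, which limits the comparison of these shares.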

How the data were processed

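RNA was read on Affymetrix mouse arrays. The authors deposited log2 values from RMA, a method that puts arrays on a common distribution, per the submitters' processing notes (software version not given in the sources used here). All 6 induced arrays and the 3 ESC arrays were used, and none was left out or imputed. Of the 45101 probe sets, 34945 carry 1 gene symbol; the probe set brightest on average over the 11 arrays stood for its gene. Chromosomes came from a RefSeq table (GRCm38.p6) matched by Entrez identifier. The values were fitted with limma 3.58.1 in R 4.3.3 (1 mean a group, eBayes, Benjamini-Hochberg over 18193 genes, threshold 0.05), a procedure tested on simulated data. Chromosome positions are medians over genes with a mean of at least 7, compared by exact permutation.

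Members, gene lists and rules were chosen with earlier results of these data known. Named genes are, past the threshold, the 10 highest and 10 lowest on autosomes other than 8 and 11, the 5 highest and 5 lowest on X, 11 and 8, every list member past the threshold and up to 4 others per list. The 19 lists hold 739 entries, of which 679 were measured. Arrays share replicate numbers across groups, and the same-numbered ViPSC and TiPSC arrays did not deviate together (r = 0.0616, -0.00405 and 0.00190), so no pairing was used. Precision is limited by how few arrays each group holds.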

Additional observations from a re-analysis of the deposited data

How the results depend on the processing

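The count of 1024 genes became 2621 with the 6 induced arrays alone, 623 with a replicate block and 1635 with every probe set tested, and ran from 207 to 1994 when arrays were left out in turn. Outside chromosomes 8 and 11 the 723 genes became 1927 and 431 with the first 2 settings and 137 to 1488 on leaving out arrays. On chromosome 11 the 253 genes became 567 and 164, with 55 to 434 on leaving out arrays. With each chromosome centred they became 358 (43 higher and 315 lower), and with only expressed genes kept as well, a setting chosen after seeing the data, 81 (39 and 42). The centring on expressed genes also lowered, in ViPSC, chromosome 11 genes under a level of 5, whose own median difference was 0.0186. On chromosome 8 the 48 genes became 127 and 28, and 14 to 108. Leaving out ViPSC 1, 2 or 3 or TiPSC 1 lowered each of these 4 counts by over 1.5 times, and leaving out ESC 1 raised each. The chromosome 11 difference of 0.468 stayed above 0 at 0.414 (expressed from 5), 0.485 (from 9), 0.430 (mean of all probe sets), 0.440 (no centring) and 0.463 to 0.473 without 1 array, and the block left it at 0.468. The chromosome 8 difference ran from -0.285 to -0.0425 without 1 array. With the mean of all probe sets Tug1 turned to 0.0033 and Lamc1 to 0.10, since their probe sets disagree. Of the 66 named genes with several probe sets, 51 had all in the same direction and 33 had over 1 called the same way. Of 112 named genes 87 passed with the block, 112 with the 6 arrays and 51 to 112 without 1 array, where fewer arrays also leave fewer degrees of freedom. The replicate numbers share only a number. Signal near background limits genes under a level of 5.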
